A study of Mus musculus with 8 samples.

Results

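Trp53, the gene of the tumour suppressor p53, and 9 genes of its damage response were followed across bulk medial prefrontal cortex of mice. They were taken by name (Trp53, Mdm2, Cdkn1a, Gadd45a, Ccng1, Bax, Bbc3, Phlda3, Trp53inp1 and Sesn1) from the 54446 Ensembl identifiers of the deposited raw count table, matched to GENCODE M21 symbols, a rule that uses no measured value. All 10 were found and all 10 passed the low-count filter, which kept 17636 genes. None of the 10 passed an adjusted p under 0.05 between the groups, where 0.034% of all genes tested did.

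The study altered the expression of a schizophrenia risk gene in the mouse prefrontal cortex by stereotaxic delivery of adeno-associated virus, and its title names INO80E, which belongs to the chromatin remodeller INO80. Of the 8 libraries, 4 were labelled Ino80e overexpression and 4 wild type, with replicate numbers 1 to 4 in each. The sources used here give no strain, no age, no promoter or serotype of the virus, no time after injection and no control virus for the wild-type mice. Nor do they say whether a library is 1 mouse or a pool. The p-values therefore cover only how far these 8 libraries vary, part of which may be technical.

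p53 is a transcription factor that is held at a low level by the ubiquitin ligase MDM2 and is stabilised when ATM, ATR and the checkpoint kinases signal damaged DNA. It then raises genes that stop the cell cycle, that repair DNA, that restrain its own activity and, when damage persists, that open the mitochondrial route to apoptosis. Much of its regulation is at the level of the protein, so the Trp53 transcript by itself does not report p53 activity, and its target genes are the usual readout. In postmitotic neurons the proapoptotic targets, Bbc3 among them, are known from models of neuronal injury.

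p53 binds DNA as a tetramer through pairs of a 10-base half-site. To show what the results concern, the sequences before the annotated starts of 5 of the genes are printed, 5′ to 3′ on the gene's strand, from RefSeq on GRCm38.p6, with every exact match to the p53 half-site consensus in capitals. Cdkn1a is shown for its 2 matches, Bax because its levels did not overlap between the groups, and Bbc3, Phlda3 and Ccng1 because they had the lowest p of the 10. The stretches are chr17:29090729-29090975 (plus strand, before the upstream of 2 annotated starts), chr11:40755312-40755536 (minus strand), chr7:45466899-45467148 (minus strand), chr7:16309333-16309582 (plus strand, before the first of 3 annotated starts) and chr1:135765835-135766084 (plus strand).
Cdkn1a: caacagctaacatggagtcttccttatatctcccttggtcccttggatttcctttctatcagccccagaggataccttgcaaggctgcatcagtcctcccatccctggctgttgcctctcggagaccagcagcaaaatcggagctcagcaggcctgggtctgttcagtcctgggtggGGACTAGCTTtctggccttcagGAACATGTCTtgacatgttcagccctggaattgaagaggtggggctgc
Ccng1: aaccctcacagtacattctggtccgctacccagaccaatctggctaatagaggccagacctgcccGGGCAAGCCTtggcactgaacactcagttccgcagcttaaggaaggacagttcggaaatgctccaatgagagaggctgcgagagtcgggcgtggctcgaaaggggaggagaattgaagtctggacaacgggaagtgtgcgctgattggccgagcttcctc
Bax: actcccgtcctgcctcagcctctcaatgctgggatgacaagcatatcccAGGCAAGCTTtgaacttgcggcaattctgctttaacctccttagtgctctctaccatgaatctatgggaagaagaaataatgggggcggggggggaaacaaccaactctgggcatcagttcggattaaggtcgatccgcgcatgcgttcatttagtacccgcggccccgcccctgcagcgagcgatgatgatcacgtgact
Bbc3: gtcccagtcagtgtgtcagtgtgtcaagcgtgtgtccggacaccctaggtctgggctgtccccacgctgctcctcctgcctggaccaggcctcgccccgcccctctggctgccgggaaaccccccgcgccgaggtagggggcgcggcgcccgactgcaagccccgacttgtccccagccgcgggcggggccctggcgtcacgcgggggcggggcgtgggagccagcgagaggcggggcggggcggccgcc
Phlda3: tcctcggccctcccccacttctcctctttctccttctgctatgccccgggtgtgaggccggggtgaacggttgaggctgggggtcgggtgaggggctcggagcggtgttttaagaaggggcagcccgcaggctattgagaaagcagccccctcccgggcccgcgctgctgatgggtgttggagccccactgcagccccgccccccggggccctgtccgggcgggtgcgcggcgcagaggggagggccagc

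The consensus is its own reverse complement, so a single search covered both strands of the 250 bases before each start. The table held a promoter for 9 of the 10 genes, all but Trp53inp1. A half-site stood before at least 1 start of 7 of these 9 genes: Cdkn1a, Ccng1, Bax, Mdm2, Gadd45a, Sesn1 and Trp53. That of Gadd45a began 40 bases before its RefSeq start, within an exon of the gene in GENCODE M21. Over all genes in the table, 8.20% had a half-site, 2216 of 27025. The window of Cdkn1a printed here held 2, GGACTAGCTT and GAACATGTCT, separated by 12 bases and beginning 73 and 51 bases before the start. The bases directly after GAACATGTCT, tgacatgttc, miss the consensus at their first base only, so the exact search left them out. Which of these p53 binds was not tested. Only 0.259% of all 32851 windows held at least 2 exact matches. Bbc3 and Phlda3 held no exact match in these windows, which says only that these letters are not there. The printed window of Bbc3 holds cgacttgtcc, which misses the consensus at its first base only. In Ccng1, agacctgccc, directly before GGGCAAGCCT, misses it at 1 base. Near matches were not counted in any window, so others may stand there, and binding was not tested for these either. The windows of Bbc3 and Phlda3 were also rich in G and C, at 76.4% and 71.2%, against 55.2% for Ccng1, 54.0% for Bax and 54.0% for Cdkn1a. The GC box (GGGCGG or CCGCCC) stood before 7 of the 9 genes and before 35.4% of all genes, and overlapped no half-site of the 10 genes. These matches describe the letters of the genome and are the same in every library.

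Libraries held 44762378 to 60490153 counts. Levels are in CPM, the counts of a gene on a common scale of library size, with means ± SD of each group of 4, and fold changes are log2, overexpression minus wild type, from edgeR's quasi-likelihood test with its standard error (SE). Ino80e, the targeted gene, stood at 74.1, 23.4, 23.3 and 45.04 CPM in replicates 1 to 4 of the libraries labelled overexpression and at 19.5 to 25.5 CPM in wild type. Its exons overlap those of Doc2a and Hirip3 on the other strand, so these levels are uncertain too, as the strand setting of the counting is not given. Replicates 2 and 3 lay within the wild-type range, and a two-sided exact permutation of the labels over log2 CPM gave p = 0.11, with 0.029 the lowest p possible for 4 and 4 libraries. Each result is of the libraries labelled overexpression, and values without replicates 2 and 3 follow beside the main ones. All 8 neuron markers were present in every library, with a summed level of 13777 to 15232 CPM in the libraries labelled overexpression and 13268 to 15104 CPM in wild type.

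Other gene groups differed between single libraries. The summed level of 12 microglia markers was 504 to 643 CPM in the libraries labelled overexpression and 478 to 543 CPM in wild type, and the summed level of 12 interferon-stimulated genes was 49.9 to 166 CPM against 48.6 to 63.2 CPM. No gene of either list was at 0 in any library, and 5 of the 12 microglia markers and 1 of the 12 interferon-stimulated genes were higher at an unadjusted p under 0.05, against 5.24% of all genes tested, with none called. On the log2 scale the interferon-stimulated list stood 1.75 above the wild-type mean in overexpression replicate 1, and the oligodendrocyte list 0.39 below it in the same library. The activity-regulated list stood 0.70 and 0.86 below it in overexpression replicates 1 and 2. Of its 12 genes, 4 were lower at an unadjusted p under 0.05, against 5.43% of all genes tested, and Fosb, named after its values were seen, was called (log2 -0.59, SE 0.11; edgeR adjusted p = 0.042). The part of these shifts in the values below was not tested. In bulk tissue, fewer cells of a type and less RNA per cell cannot be told apart.

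**Figure D1:**
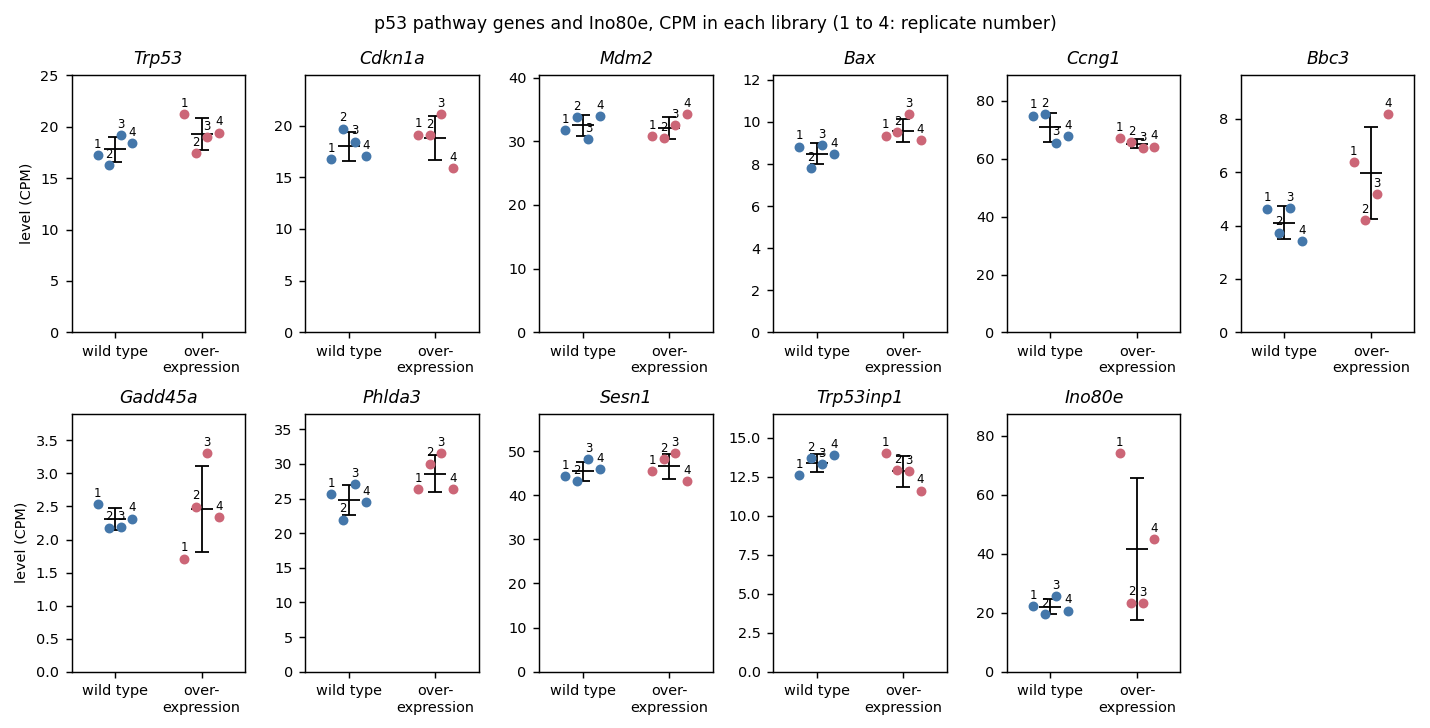
Level in CPM (vertical axis, from 0) of the 10 genes and of Ino80e in every library; points are libraries with their replicate number, and the black bars are the mean ± SD of 4 libraries. Most genes lie at the same height in both groups, and Bax is slightly higher in all 4 libraries labelled overexpression. Bbc3, Ino80e and, by a small margin, Trp53 are highest in overexpression replicates 1 and 4.

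Trp53 was expressed at 21.3, 17.4, 19.0 and 19.4 CPM in the libraries labelled overexpression, replicates 1 to 4, and at 17.3, 16.3, 19.2 and 18.4 CPM in wild type. The groups overlapped, with overexpression replicate 1 the highest library and wild-type replicate 2 the lowest. It had a log2 fold change of 0.12 (SE 0.087, 95% interval -0.064 to 0.29), which did not pass (edgeR adjusted p = 0.64), and of 0.19 (SE 0.11) without overexpression replicates 2 and 3. No read was counted in any library at its annotated pseudogene, Trp53-ps.

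Mdm2, whose product tags p53 for degradation and which p53 itself induces, was the most even of the 10 genes between the groups. Levels were 30.9, 30.5, 32.5 and 34.3 CPM in the libraries labelled overexpression and at 31.8, 33.8, 30.4 and 33.9 CPM in wild type. The ranges of the groups nearly coincided, and the log2 fold change was -0.019 (SE 0.068, 95% interval -0.16 to 0.12; edgeR adjusted p = 0.94). Its sign turned without overexpression replicates 2 and 3 (log2 0.0052). Mdm4, a relative of Mdm2 that inhibits p53 without degrading it by itself, had a log2 fold change of -0.061 (SE 0.060).

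None of the 3 genes of cell-cycle arrest passed the test. Cdkn1a, which encodes the cyclin-dependent kinase inhibitor p21 and is the best known target of p53, stood at 19.1, 19.1, 21.1 and 15.9 CPM in the libraries labelled overexpression and at 16.8, 19.7, 18.4 and 17.0 CPM in wild type. Both the highest and the lowest library belonged to the overexpression group. The log2 fold change was 0.065 (SE 0.092, 95% interval -0.13 to 0.26; edgeR adjusted p = 0.83), and -0.037 without overexpression replicates 2 and 3. Cdkn1a shares exon sequence with the transcript model AC167363.2 on the other strand, which leaves its counts uncertain, since the strand setting of the counting is not given.

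Gadd45a, a stress sensor that binds p21 and PCNA, was the scarcest of the 10, with 89 to 200 counts per library. It held 1.71, 2.50, 3.31 and 2.33 CPM in the libraries labelled overexpression against 2.54, 2.18, 2.19 and 2.32 CPM in wild type. The overexpression libraries spread to both sides of the narrow wild-type range. The log2 fold change was 0.098 with the widest interval of the 10 genes (SE 0.22, -0.36 to 0.56; edgeR adjusted p = 0.90), and it was -0.19 without overexpression replicates 2 and 3. Gadd45a overlaps E230016M11Rik on the opposite strand. Its relatives Gadd45b (log2 -0.26, SE 0.15) and Gadd45g (log2 -0.25, SE 0.14), both also induced by neuronal activity, had negative values short of the threshold (edgeR adjusted p = 0.55 and adjusted p = 0.52).

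Ccng1, which encodes cyclin G1 and feeds back on p53 through MDM2, was the only one of the 3 genes with a negative fold change whose interval lay wholly below 0. Its levels were 67.2, 65.9, 63.65 and 64.2 CPM in the libraries labelled overexpression and 74.9, 75.5, 65.6 and 67.8 CPM in wild type. Wild-type replicates 1 and 2 stood clear above all 4 libraries labelled overexpression, while wild-type replicate 3 lay among them. Ccng1 had a log2 fold change of -0.12 (SE 0.056, 95% interval -0.24 to -0.0050, unadjusted p = 0.042), short of the threshold over all genes (edgeR adjusted p = 0.45), and of -0.11 (SE 0.072) without overexpression replicates 2 and 3. Ccng2, its closest relative, had a log2 fold change of -0.11 (SE 0.067; edgeR adjusted p = 0.55).

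Among the genes of apoptosis, Bbc3 had the largest fold change and the lowest p of the 10. Bbc3 encodes PUMA, a BH3-only protein that binds the antiapoptotic BCL-2 proteins and so frees BAX and BAK. Its levels were 6.39, 4.19, 5.17 and 8.19 CPM in the libraries labelled overexpression and 4.63, 3.74, 4.65 and 3.43 CPM in wild type, from 173 to 414 counts per library. Overexpression replicates 4 and 1 were the highest of the 8 libraries, and replicate 2 lay inside the wild-type range. Its mean was 5.98 ± 1.72 CPM in the libraries labelled overexpression and 4.11 ± 0.625 CPM in wild type (SD, n = 4 each). On the log2 scale the difference was 0.54 (SE 0.18, 95% interval 0.16 to 0.92, unadjusted p = 0.0073). It did not pass over all genes (edgeR adjusted p = 0.33, DESeq2 adjusted p = 0.18, limma-voom adjusted p = 0.42).

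The 2 libraries with the most Bbc3 were the 2 with raised Ino80e, though in the reverse order. Trp53 too was highest in overexpression replicates 1 and 4 (21.3 and 19.4 CPM), with wild-type replicate 3 next at 19.2 CPM. The match was seen in the values, and the share of all genes with it was not counted. Ino80e was 1.76 and 1.04 above its wild-type mean on the log2 scale in overexpression replicates 1 and 4, where Bbc3 was 0.65 and 1.01 above its own, and 0.10 and 0.089 in replicates 2 and 3, where Bbc3 was 0.041 and 0.34 above. Without replicates 2 and 3 the log2 fold change of Bbc3 was 0.83 (SE 0.19, unadjusted p = 3.2e-04), still short of the threshold (edgeR adjusted p = 0.35). Without replicate 4 alone it was 0.35 (edgeR adjusted p = 0.57). The relation of Bbc3 and Ino80e was not tested, and overexpression replicate 1 is also the library with the high interferon-stimulated genes. Bbc3 lies on chromosome 7 at 16308393 to 16318205 and Ino80e on the same chromosome at 126850960 to 126862377 (GRCm38). Bax lies on it too, at 45461697 to 45466898.

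Bax, the pore-forming effector of mitochondrial apoptosis, was the only one of the 10 genes whose groups did not overlap. It stood at 9.35, 9.501, 10.4 and 9.14 CPM in the libraries labelled overexpression and at 8.82, 7.79, 8.88 and 8.46 CPM in wild type. Every library labelled overexpression lay above every wild-type library, by a small margin between 9.14 and 8.88 CPM. Over all genes tested, 2.82% were higher in this way and 3.02% lower, and 1 gene of 10 cannot tell the 10 from the table at large. Its log2 fold change of 0.18 (SE 0.11, 95% interval -0.047 to 0.40) did not pass (edgeR adjusted p = 0.56) and was 0.12 (SE 0.14) without overexpression replicates 2 and 3. Exons of Bax overlap those of the protein-coding model Gm45808 on its own strand, which makes its counts uncertain.

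Phlda3, a p53 target that blocks AKT at the membrane, held 26.3, 30.05, 31.6 and 26.3 CPM in the libraries labelled overexpression and 25.7, 21.98, 27.05 and 24.5 CPM in wild type. Replicates 2 and 3 of the overexpression group were the highest, and replicates 1 and 4 lay just under the top of the wild-type range. These are the reverse of the libraries in which Bbc3 was high. Phlda3 had a log2 fold change of 0.20 (SE 0.082, 95% interval 0.035 to 0.37, unadjusted p = 0.020; edgeR adjusted p = 0.40). Without overexpression replicates 2 and 3 it was 0.086 (SE 0.097).

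Trp53inp1, a stress-induced protein of autophagy and cell death, had 14.001, 12.9, 12.8 and 11.6 CPM in the libraries labelled overexpression and 12.6, 13.7, 13.3 and 13.9 CPM in wild type. The overexpression group held both the highest and the lowest library, and the log2 fold change was -0.058 (SE 0.094, 95% interval -0.25 to 0.14; edgeR adjusted p = 0.85), or -0.061 without overexpression replicates 2 and 3. Its relative Trp53inp2 had a log2 fold change of -0.058 too (SE 0.048; edgeR adjusted p = 0.68). Sesn1, a sestrin that restrains mTORC1 under stress, had 45.45, 48.2, 49.5 and 43.2 CPM in the libraries labelled overexpression and 44.3, 43.3, 48.2 and 45.9 CPM in wild type. Both groups spanned nearly the same range (log2 0.036, SE 0.061, 95% interval -0.091 to 0.16; edgeR adjusted p = 0.86), and the value was -0.036 without overexpression replicates 2 and 3. The other sestrin genes stood at log2 0.11 for Sesn2 (SE 0.12) and -0.080 for Sesn3 (SE 0.052).

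**Figure D2:**
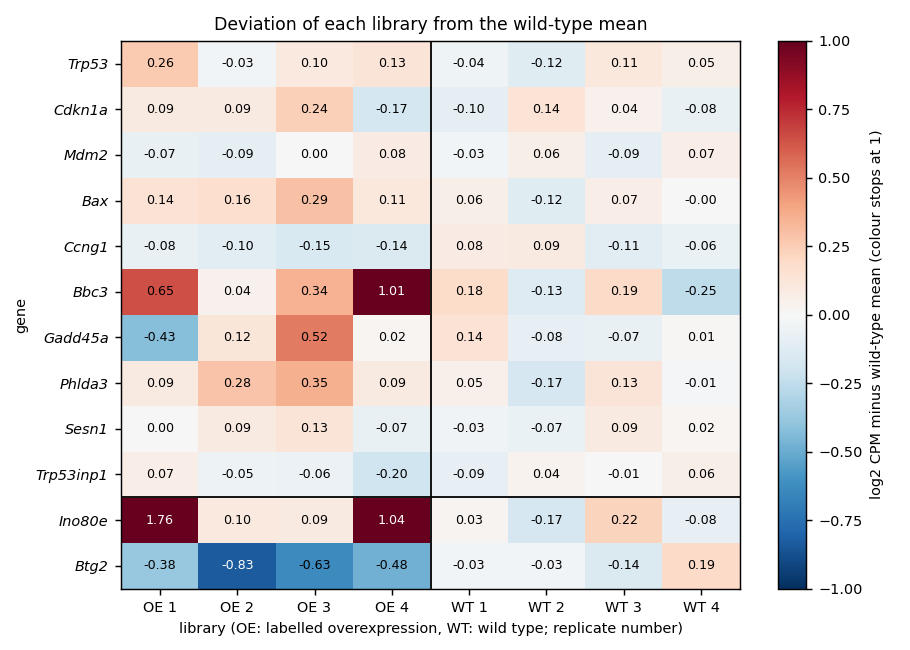
Log2 CPM of each library minus the wild-type mean of the gene (colour and printed number), for the 10 genes, Ino80e and Btg2 (rows) in the 8 libraries (columns). Overexpression replicate 3 has the highest average over the 10 genes (0.18), Bbc3 is high in overexpression replicates 1 and 4, and Btg2 is low in all 4 libraries labelled overexpression.

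The 10 genes did not rise and fall as a unit across the libraries. Averaged over the 10, the deviation from the wild-type mean was 0.072, 0.051, 0.18 and 0.085 on the log2 scale in overexpression replicates 1 to 4, and -0.037 to 0.034 in wild type. Overexpression replicate 3, the deepest library and one without raised Ino80e, had the highest level of 5 of the 10 genes: Cdkn1a, Bax, Gadd45a, Phlda3 and Sesn1. Overexpression replicates 1 and 4 had the highest level of 2 each, Trp53 and Trp53inp1 in the first and Mdm2 and Bbc3 in the last. Wild-type replicate 2 had the highest Ccng1 and the lowest Trp53, Bax and Phlda3.

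Of the 10 genes, none was called, where 0.034% of all genes tested were (6 of 17636). At an unadjusted p under 0.05, 2 were higher (Bbc3 and Phlda3) and 1 lower (Ccng1), where 5.24% of all genes tested were higher and 5.43% lower. DESeq2 called none of the 9 genes to which it gave an adjusted p, all but Gadd45a (0.322% of all genes called, 41 of 12716), and limma-voom none of the 10 (0.0113%). Without overexpression replicates 2 and 3 none was called and 1, Bbc3, had an unadjusted p under 0.05, where 7.08% of all genes tested did. The median log2 fold change of the 10 was 0.081, beside 0.0016 over all genes tested, and 7 of the 10 lay above 0.

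The order of the fold changes ran with the base composition of the transcripts, most clearly at its ends. Mean transcript GC was 68.6% for Bbc3, which had the largest fold change, 58.4% for Phlda3 and 58.4% for Bax, which followed it, and 41.1% for Trp53inp1 and 37.4% for Ccng1, which had the lowest. Gadd45a, at 58.3%, lay mid-order. Over all genes tested, the median log2 fold change was -0.097 in the 20% of genes with the lowest transcript GC and 0.095 in the 20% with the highest. After each library was corrected for GC content, Ccng1 moved from -0.12 to 0.0075 (SE 0.048), Phlda3 from 0.20 to 0.11 (SE 0.076), Bax from 0.18 to 0.080 (SE 0.11) and Trp53inp1 from -0.058 to 0.048 (SE 0.095). Bbc3 kept the largest value, 0.43 (SE 0.18, unadjusted p = 0.024; edgeR adjusted p = 0.95). It was then the only gene of the 10 at an unadjusted p under 0.05, where 4.99% of all genes were. Sesn1 moved away from 0, from 0.036 to 0.084 (SE 0.061). After the correction 8 of the 10 lay above 0, where 8428 of 17627 genes did. Their median was 0.053, beside -0.0058 over all genes.

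**Figure D3:**
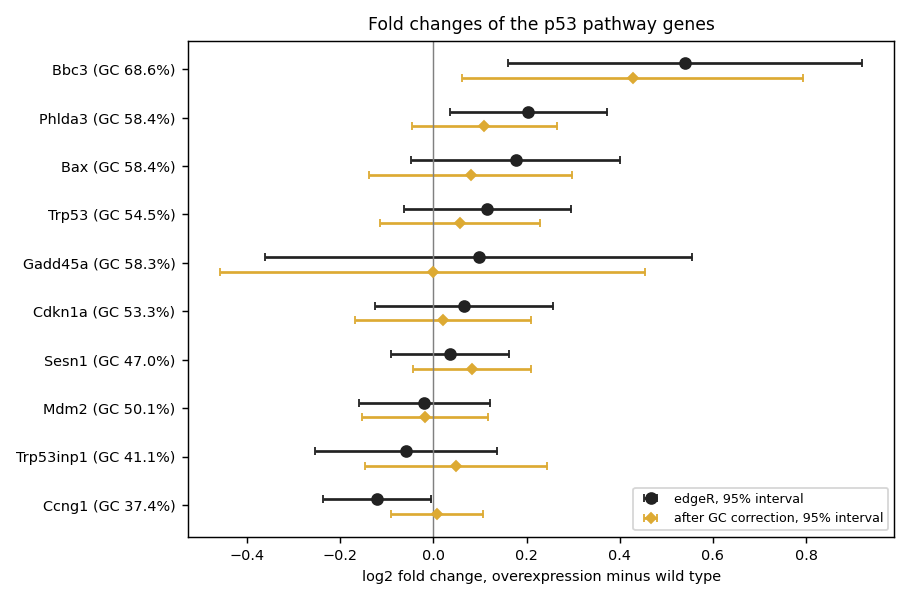
Log2 fold change (horizontal axis, overexpression minus wild type) of the 10 genes with 95% intervals, before (black circles) and after (yellow diamonds) correction of each library for GC content; the mean transcript GC stands beside each name. The uncorrected values run from Ccng1 at -0.12 to Bbc3 at 0.54, and after correction 9 of the 10 intervals include 0, all but that of Bbc3.

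To compare levels between genes, CPM was divided by the exon length of the gene in kilobases. In wild type Ccng1 was the most abundant of the 10 on this scale (20.2 ± 1.42), followed by Phlda3 (15.9 ± 1.38), Sesn1 (11.4 ± 0.540) and Mdm2 (6.39 ± 0.335). Bax (5.39 ± 0.317), Cdkn1a (5.06 ± 0.385) and Trp53 (4.40 ± 0.312) came next, and Trp53inp1 (2.06 ± 0.0886), Bbc3 (1.94 ± 0.294) and Gadd45a (1.31 ± 0.0952) were the scarcest (SD, n = 4 each). The neighbours Bax and Cdkn1a, Cdkn1a and Trp53, and Trp53inp1 and Bbc3 lay within the sum of their SDs. In the libraries labelled overexpression, Ccng1 (18.6 ± 0.457) and Phlda3 (18.3 ± 1.71) did so as well, as did Mdm2 (6.31 ± 0.343) and Bax (6.09 ± 0.348). Bbc3 (2.82 ± 0.810) there had a higher mean than Trp53inp1 (1.98 ± 0.151), again within the sum of their SDs.

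The wider pathway was read from lists of further p53 targets, p53 regulators, damage signalling, DNA repair, the apoptosis machinery and paralogues of the 10 genes. Together they held 143 genes, of which 139 were tested, and 1 of these was called. Of 29 further p53 targets tested, Btg2 fell and no other passed; 17 lay above 0, with a median log2 fold change of 0.043. Btg2 encodes an antiproliferative cofactor of mRNA deadenylation that p53 induces and that neuronal activity induces as well. It stood at 14.2, 10.4, 11.9 and 13.2 CPM in the libraries labelled overexpression and at 18.2, 18.2, 16.7 and 21.2 CPM in wild type, with no overlap between the groups. The log2 fold change was -0.58 (SE 0.10; edgeR adjusted p = 0.037), in the direction opposite to Bbc3, Phlda3 and Bax. Without overexpression replicates 2 and 3 it was -0.43 (SE 0.12; edgeR adjusted p = 0.49), and its call also did not hold in limma-voom (adjusted p = 0.11). It held without overexpression replicate 1 (edgeR adjusted p = 0.037) and was lost without any other single library, with adjusted p of 0.052 to 0.22. The activity-regulated list, which does not contain Btg2, was on average low in overexpression replicates 1 and 2. It stood 0.057 below and 0.061 above its wild-type mean in replicates 3 and 4, whereas Btg2 was low in all 4. Of the 12 genes of that list, 3 were also lower with no overlap between the groups, where 3.02% of all genes tested were. These were Fosb, Bdnf and Ptgs2, named after their values were seen. The part of the activity-regulated genes in the fall of Btg2 was not tested. Next by p came Trp53i11 (log2 0.14, SE 0.052), the ubiquitin ligase subunit gene Fbxw7 (log2 -0.16, SE 0.063) and Apaf1, the scaffold of the apoptosome (log2 0.24, SE 0.11), none past the threshold. After GC correction Trp53i11 was at 0.040 (SE 0.051) and Fbxw7 at -0.071 (SE 0.056), while Apaf1 was larger, at 0.30 (SE 0.11). In this list the groups did not overlap for Btg2, lower, and Apaf1, higher, where 3.02% and 2.82% of all genes did so. At an unadjusted p under 0.05, 3 were higher and 2 lower, where 5.24% and 5.43% of all genes tested were.

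Among 22 damage signalling genes, 14 lay below 0 and none passed the test (median log2 -0.049). At an unadjusted p under 0.05, 3 were lower and none higher, where 5.43% and 5.24% of all genes tested were. After GC correction 1 was lower at such a p, where 475 of 17627 genes were. The groups did not overlap for 4 lower genes, Rad17, Atm, Prkdc and Hus1, where 3.02% of all genes tested did so. None was higher in this way, where 2.82% of all genes were. Hus1 (log2 -0.13, SE 0.092) was named after its values were seen. Rad17, which loads the clamp that activates ATR signalling, stood at 10.4, 10.1, 9.26 and 9.12 CPM in the libraries labelled overexpression and at 12.4, 12.3, 12.5 and 12.2 CPM in wild type. The groups were well apart and the wild-type libraries nearly equal, yet the log2 fold change of -0.35 (SE 0.098, unadjusted p = 0.0016) did not pass over all genes (edgeR adjusted p = 0.31, DESeq2 adjusted p = 0.079). Rad17 shares exon sequence with Ak6 on the other strand and is uncertain for that reason, and after GC correction its value was -0.24 (SE 0.098). Atm, the kinase of double-strand break signalling, held 18.5 to 20.5 CPM against 20.99 to 28.2 CPM (log2 -0.23, SE 0.091; edgeR adjusted p = 0.39), with wild-type replicate 2 far above the rest. Its log2 fold change was -0.12 without that library and -0.13 (SE 0.084) after GC correction. Rnf168 (log2 -0.15, SE 0.068) and Prkdc (log2 -0.14, SE 0.073), which mark and join double-strand breaks, did not pass either. The list had a median transcript GC of 46.0%, below the 50.5% of all genes tested, and its median after GC correction was -0.019.

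The 40 repair genes were evenly divided, 20 above and 20 below 0, with a median log2 fold change of 0.0033 and none past the test. Lig1, the replicative DNA ligase, stood at 11.9 to 12.5 CPM in the libraries labelled overexpression and at 9.89 to 10.7 CPM in wild type. Xrcc2, of homologous recombination, stood at 4.79 to 5.22 against 3.70 to 4.32 CPM, and Rad51c, of the same pathway, at 1.94 to 2.23 against 2.65 to 3.14 CPM. Lig1 (log2 0.23, SE 0.096), Xrcc2 (log2 0.34, SE 0.15) and Rad51c (log2 -0.48, SE 0.20) did not pass (edgeR adjusted p = 0.41, 0.43 and 0.40). After GC correction Lig1 was at 0.19 (SE 0.095), Xrcc2 at 0.36 (SE 0.15) and Rad51c at -0.41 (SE 0.20). The groups did not overlap for 2 higher genes, Lig1 and Xrcc2, and for 2 lower ones, Rad51c and Apex1 (log2 -0.21, SE 0.11; named after its values were seen), where 2.82% and 3.02% of all genes tested did so. Parp2, of single-strand break repair, had a log2 fold change of -0.24 (SE 0.11). Exons of Lig1 overlap those of Zswim9 on the opposite strand.

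Of 20 p53 regulators tested none passed and none had an unadjusted p under 0.05 (median log2 0.013). The lowest p was that of Usp7, which removes ubiquitin from p53 and MDM2 (log2 -0.091, SE 0.050; edgeR adjusted p = 0.52, and 0.00050 on the log2 scale after GC correction). Setd7 (log2 -0.087), Trim24 (log2 -0.13) and Ppp1r13l (log2 0.19) followed. In the apoptosis machinery 14 of 20 genes lay above 0 (median log2 0.031) and none passed. After GC correction 10 of the 20 lay above 0 (median log2 0.0089), and none had an unadjusted p under 0.05. Among the antiapoptotic genes, Bcl2l1, which encodes BCL-XL, stood at 110.02 to 113 CPM in the libraries labelled overexpression against 102 to 105 CPM in wild type (log2 0.11, SE 0.048), and Bcl2 at 17.5 to 22.02 against 22.3 to 24.2 CPM (log2 -0.19, SE 0.083). Neither passed (edgeR adjusted p = 0.41 and adjusted p = 0.43), and after GC correction they were at log2 0.058 (SE 0.047) and -0.12 (SE 0.081). The other antiapoptotic genes of the list, named after their values were seen, were at log2 0.052 for Bcl2l2, 0.0044 for Mcl1 and -0.10 for Xiap. The groups did not overlap for 1 higher gene of the list, Bcl2l1, and for 2 lower ones, Bcl2 and Cycs, where 2.82% and 3.02% of all genes tested did so. Cycs, the cytochrome c gene, was at log2 -0.14 (SE 0.054) and Htra2, a mitochondrial protease gene, at log2 0.24 (SE 0.10); Cycs has processed copies in the genome and Htra2 overlaps other genes, so both are uncertain. Of 14 paralogues of the 10 genes, 9 lay below 0 (median log2 -0.048) and none passed, the lowest p after that of Gadd45g being that of Bok, a relative of Bax (log2 0.16, SE 0.092). After GC correction 3 of the 14 were lower at an unadjusted p under 0.05, where 475 of 17627 genes were. These were Gadd45g (log2 -0.35, SE 0.13), Gadd45b (log2 -0.35, SE 0.14) and Trp53inp2 (log2 -0.15, SE 0.051), and none passed (edgeR adjusted p = 0.90 or more).

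**Figure D4:**
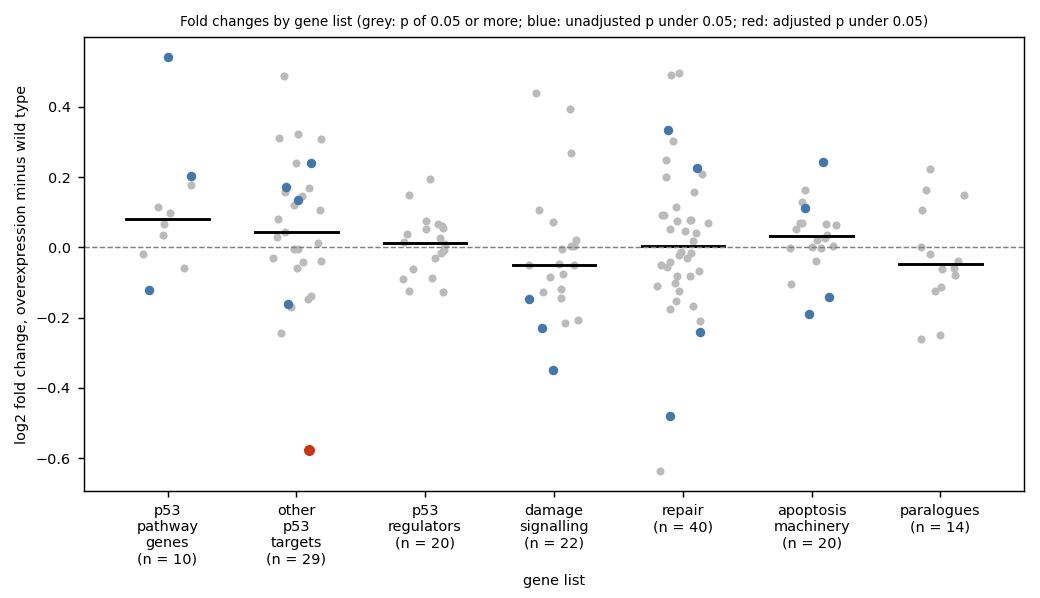
Log2 fold change (vertical axis, overexpression minus wild type) of every tested gene of each list; points are genes, black lines list medians and the dashed line the median of all genes tested. Medians lie between -0.049 and 0.081, and Btg2, among the further p53 targets, is the only gene past the adjusted threshold.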

How the data were processed

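Strand-specific poly(A) RNA libraries were made by the dUTP method per the labels' protocols. The authors deposited 1 table of raw read counts, 1 column per library. The submitters' processing notes list the tools featureCounts 2.0.3, STAR 2.7.10 and Trimmomatic 0.39 and the build names GRCm38 and mm10. Those sources do not give the annotation counted, the strand setting or the treatment of multiply mapped reads. Groups and replicate numbers came from the titles. No library was a copy of another (lowest chi-square per degree of freedom 9.11 over 28 pairs). Same-numbered libraries did not deviate together (correlations of -0.051 to 0.027), so the numbers were not treated as pairs.

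Low counts were removed with filterByExpr and libraries scaled by TMM. The test was edgeR 4.0.16's robust quasi-likelihood F test (R 4.3.3) over all genes, with a threshold of 0.05 on the Benjamini-Hochberg adjusted p. It was also tried on counts simulated from the fitted means and dispersions. These held no GC trend and no shift of a single library, so they cannot show how the test fares with either. Symbols, exon lengths and transcript GC came from GENCODE M21, and 54409 of 54446 identifiers had a symbol. The alternatives were other scalings and filters, DESeq2 1.42.0, limma-voom (limma 3.58.1), dispersions not robustly estimated, a block for the replicate number, a GC correction and leaving out libraries. For the GC correction, each gene's log2 CPM minus its mean over the libraries was regressed on transcript GC in each library. The fit was a spline of 5 degrees of freedom on genes above a minimum mean CPM, and its values were used as an offset. Intervals are 95% intervals of the edgeR fold change, unadjusted. The genes, lists and alternatives were chosen with earlier results of these data known. Named from each list were the called genes and up to 4 with the lowest p, and from the paralogues also the relatives described beside a gene. The list genes Gdf15, Cdkn2a, Bik and Phlda2 did not pass the low-count filter.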

Additional observations from a re-analysis of the deposited data

Results flagged for a closer look

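Dixon's test at the 95% level was run on each group of 4 for a library far from the rest, which chance gives in about 5% of groups. It was met in 4 of 78 groups, 2 for each of the 39 genes checked, and in none of the 10 p53 pathway genes. Atm stood at 28.2 CPM in wild-type replicate 2 against 20.99 to 21.7 CPM in the other wild-type libraries. Trp53i11 stood at 84.3 CPM in wild-type replicate 3 against 79.7 to 80.2 CPM. Gadd45b stood at 5.47 CPM in overexpression replicate 2 against 8.07 to 8.42 CPM. Mdm4 stood at 69.7 CPM in overexpression replicate 4 against 59.1 to 60.8 CPM.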

How the results depend on the processing

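None of the 10 p53 pathway genes was called in any of 20 alternatives. Over these fits Bbc3 had a log2 fold change of 0.35 to 0.83 and an adjusted p of 0.15 or more. The number of genes called in all was 6, and it was 83 with no low-count filter, 41 with DESeq2, 2 with limma-voom, 2 without robust estimation, 1 with the replicate number as a block, 2 with the block and the GC correction, 1 without overexpression replicates 2 and 3, and 1 to 8 without single libraries; the cause was not tested. Of the pathway lists 1 gene, Btg2, was called, and 0 with limma-voom, without robust estimation, with the replicate block, with the block and GC correction and without overexpression replicates 2 and 3, and 0 to 1 without single libraries. The block called no member.

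Signs turned only for values that did not pass the test. With the GC correction Ccng1 was 0.0075, Gadd45a -0.0010, Trp53inp1 0.048, Usp7 0.00050 and Mdm4 0.022, and with the block as well they were 0.0073, -0.030, 0.048, 0.00080 and 0.022. Without overexpression replicates 2 and 3, Cdkn1a was -0.037, Mdm2 0.0052, Gadd45a -0.19 and Sesn1 -0.036. Over the fits without a single library, Mdm2 ran from -0.053 to 0.0041, Gadd45a from -0.080 to 0.24 and Sesn2 from -0.0097 to 0.22. Counts of 89 to 200 limit Gadd45a.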
